A study of Mus musculus with 4 samples.

Results

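The Runx transcription factors, their binding partner Cbfb and the Ikaros zinc finger proteins were examined in quiescent follicular B cells from mice with and without Ets1. The 8 genes were taken by symbol from the 23305 genes of the deposited tables, as Runx1, Runx2, Runx3 and Cbfb on one side and Ikzf1, Ikzf2, Ikzf3 and Ikzf5 on the other. RNA was sequenced from 2 WT (wild-type) libraries of C57BL/6 mice and 2 Ets1-/- libraries of mice on a mixed C57BL/6 x 129Sv background, all from female animals and all without further treatment. Cells had been sorted from the spleen as B220+, high for CD23, low for CD21 and negative for CD80 and for the switched immunoglobulin isotypes, a gate meant to leave out activated and class-switched cells. The Ets1-/- mice carry the mutation in all cells rather than in B cells alone, and strain and genotype cannot be told apart in these libraries. Values are FPKM, fragment counts scaled by transcript length and by library depth, so levels can be compared between genes. The age of the animals is not given in the sources used here.

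Runx proteins bind DNA through the Runt domain and do so stably as heterodimers with CBFβ, the product of Cbfb, which itself makes no contact with DNA. Runx1 and Ets1 bind cooperatively to composite sites, in which each relieves the inhibition that the partner protein holds over its own DNA-binding domain. Such sites are known from T cell receptor enhancers. Ikaros (Ikzf1), Helios (Ikzf2), Aiolos (Ikzf3) and Pegasus (Ikzf5) bind DNA with N-terminal zinc fingers and pair with one another through C-terminal fingers. Ikaros and Aiolos recruit the NuRD chromatin remodelling complex and are needed for B cell development and for restraint of mature B cells, while Helios is best known from regulatory T cells.

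The regulatory sequence that the Runx genes share is shown first, because the Runx promoters hold it and the searched promoters of Cbfb, Ikzf1 and Ikzf5 do not. Ikzf2 and Ikzf3 were not searched. The RefSeq promoter table gave 9 start sites for 6 of the 8 genes (Runx1, Runx2, Runx3, Cbfb, Ikzf1 and Ikzf5), each as 250 bases before and 50 bases after the start, and all 9 sequences were found at exactly 1 place in the mm9 genome. Both strands were searched for the Runx motif TGTGGT, the ETS motif CCGGAA and the Ikaros motif TGGGAA. The ETS and Ikaros motifs end in the same letters, GGAA, but differ before them, so 1 position cannot hold both. At the upstream start site of Runx1, Runx2 and Runx3, a pair of Runx motifs lay 2 bases apart, on the strand opposite to TGTGGT. The motifs are in capitals.

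Runx1, chr16:92826272-92826297, minus strand: taaacaACCACAgaACCACAagttgg
Runx2, chr17:44951534-44951559, minus strand: caaacaACCACAgaACCACAagtgcg
Runx3, chr4:134676420-134676445, plus strand: ccctcaACCACAgaACCACAaggcca

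The pair was present in 7 of 32851 promoters of the table (0.0213%), and 3 of those 7 were these Runx promoters. Only this spacing, with both motifs on the same strand, was searched, so the share describes this arrangement alone. In Runx1 and Runx2 the pair lay just after the start site, from base 28 to 41 and from base 23 to 36, and in Runx3 before it, from base -134 to -121. The Runx motif, alone or repeated, was found in 16.8% of all promoters. The ETS motif, present in 14.9% of all promoters, was found at 1 of the 9 member promoters, the downstream start site of Runx1. The Ikaros motif, present in 25.6% of all promoters, was likewise found at 1 of the 9, the upstream start site of Runx3. Both are shown with the motif in capitals, since Runx1 is the member whose expression differed most between the genotypes among those tested and Runx3 is the most abundant Runx gene. These matches describe letters in a window of 300 bases and no binding was measured here. The paper mapped Ets1 binding in splenic B cells separately and lists combined ETS-RUNX sites among the enriched motifs. Those binding data were not used here.

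Runx1 with the ETS motif, chr16:92697666-92697689, minus strand: aggctgataCCGGAAaggcctgtg
Runx3 with the Ikaros motif, chr4:134676397-134676420, plus strand: ggttgacacTGGGAAggtctggtc

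The libraries were checked before the members were compared. Ets1 itself, on chromosome 9, was at 231 and 275 FPKM in WT and at 229 and 229.8 FPKM in Ets1-/- libraries. Its log2 fold change was -0.14, with an adjusted p of 0.860 in limma. The knockout targets only part of the exons of Ets1 and leaves the others transcribed, so a level summed over the gene does not check the genotype labels, and the libraries are named by their labels throughout. The files hold no read counts. From the steps between very low FPKM values the libraries were estimated at 1, 1.71, 1.67 and 0.853 times the depth of WT replicate 1, in the order WT 1, WT 2, Ets1-/- 1 and Ets1-/- 2. B cell markers were abundant in all 4 libraries, and of 8 such markers 0 were called changed and 0 had an unadjusted p under 0.05 in limma. The summed FPKM of 8 neutrophil genes was 92.3 to 111 in WT, 2555 in Ets1-/- replicate 1 and 699 in Ets1-/- replicate 2. That of 5 red cell genes was 4.05 to 6.27 in WT, 63.8 in Ets1-/- replicate 1 and 27.7 in replicate 2. The sums for 8 macrophage genes were 31.7 to 64.8 in WT, 150.2 in Ets1-/- replicate 1 and 95.5 in replicate 2. Most of that rise lay in Lyz2 (42.2 and 18.0 FPKM in WT, 102.3 and 45.7 in Ets1-/-) and Emr1 (2.35 and 2.63, 23.5 and 37.2). The log2 fold changes of C1qa (0.36), C1qb (0.37) and C1qc (0.29) were positive and those of Csf1r (-0.16) and Cd68 (-0.06) negative. Each of these 5 had an unadjusted limma p above 0.05. All 8 neutrophil genes (3 of them called, Camp, Ngp and Ltf) and 3 of the 3 red cell genes tested had an unadjusted p under 0.05 in the upward direction, and 1 of the 7 macrophage genes tested, Emr1, was called higher. None of these markers was listed at 0 in all 4 libraries. In bulk samples, fewer cells of a type and less RNA per cell cannot be told apart, and the part of these cells in the results on the members was not tested.

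The 8 genes spanned a wide range of expression in WT follicular B cells, in an order that the Ets1-/- libraries largely shared. Ikzf3 was the most abundant, followed by Ikzf1, Cbfb, Runx3, Runx1 and Ikzf5, and this order held in all 4 libraries. Ikzf2 and Runx2 were below 1 FPKM in every library. Among all 23305 genes of a library, Ikzf3 ranked between 440 and 533 and Ikzf1 between 734 and 758 (1 being the highest FPKM). Cbfb ranked between 1567 and 1881, Runx3 between 3227 and 3517, Runx1 between 4930 and 6213 and Ikzf5 between 6039 and 6970. The closest neighbours above 1 FPKM were Runx1 and Ikzf5, which were nearly equal in Ets1-/- replicate 1 and farthest apart in Ets1-/- replicate 2. Runx1 was 1.37 and 1.44 times Ikzf5 in the WT libraries and 1.00 and 1.62 times Ikzf5 in the Ets1-/- libraries. At the bottom of the order, Ikzf2 was lower than Runx2 in 1 library (WT replicate 1) and higher in the other 3, so those genes have no settled order.

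**Figure D1:**
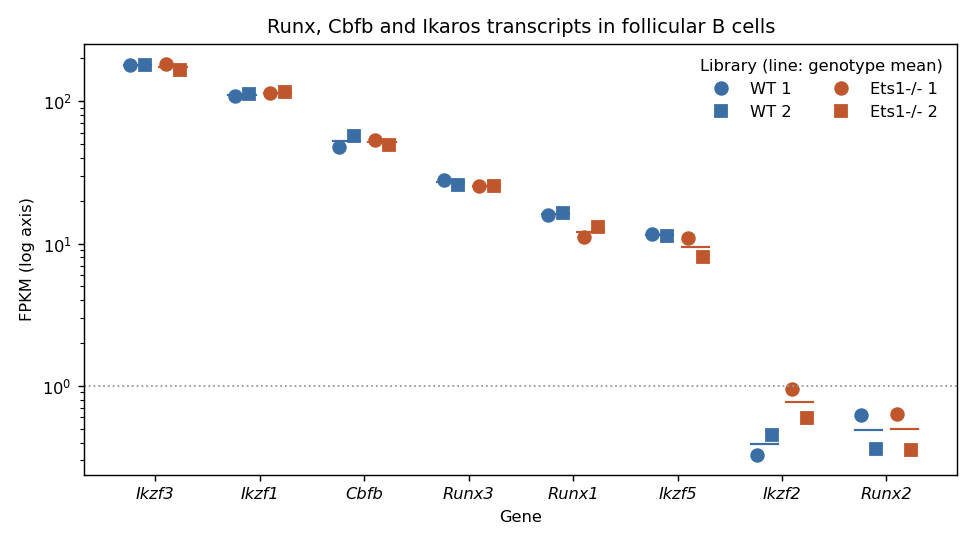
FPKM of each gene (x axis) on a log axis (y axis) in the 2 WT (blue) and 2 Ets1-/- (orange) libraries, with a short line at each genotype mean and a dotted line at 1 FPKM. Ikzf3 lies at the top with 166 to 184 FPKM, Ikzf2 and Runx2 lie below the dotted line, and both Ets1-/- points of Runx1, at 11.03 and 12.98, lie under both WT points, at 15.9 and 16.3.

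Differences between the genotypes were tested with limma on the log2(FPKM + 1) scale, on which adding 1 understates the change of low genes. Of the 10949 genes with a mean of at least 1 FPKM in either genotype, 186 (1.7%) were called changed, that is, moved 2-fold or more with a Benjamini-Hochberg adjusted p of 0.05 or less. Of the 8 members 6 passed this filter and 0 were called. Only Runx1, 1 of the 6, had an unadjusted p under 0.05, against 13.3% of all genes tested, and 6.95% of all genes tested were lower in Ets1-/- cells at that p. The values of the 2 genotypes did not overlap for 4 of the 6 members, against 41.6% of all genes tested. The median log2 fold change of the 6 members was -0.06, beside -0.02 for all genes tested, and their median absolute log2 fold change was 0.07, beside 0.16. With 2 libraries against 2, an exact permutation test cannot give a two-sided p below 0.333, so no test other than the fit across all genes was made.

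Runx1, the Runx factor that is essential for the emergence of blood stem cells and for early B cell development, was lower in both Ets1-/- libraries than in both WT libraries. The gene occupies bases 92601712 to 92826311 of chromosome 16 (mm9, minus strand), the build used for all positions given here. Its FPKM was 15.9 and 16.3 in the WT libraries and 11.03 and 12.98 in the Ets1-/- libraries. The genotypes did not overlap, and the lower WT value was 1.23 times the higher Ets1-/- value. WT cells averaged 16.1 ± 0.270 FPKM (SD, n = 2) and Ets1-/- cells 12.0 ± 1.38 FPKM (SD, n = 2), a difference of -25.5%. The log2 fold change was -0.40 (standard error 0.15, 95% confidence interval -0.77 to -0.03), which did not pass the threshold (limma, Benjamini-Hochberg adjusted p = 0.333). By unadjusted p Runx1 was at place 1315 of the 10949 genes tested. In the annotation its exons share 106 bases with an antisense gene, Gm16801, and whether the counting used strand is not given in the sources used here.

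Runx3, known for silencing of Cd4 in cytotoxic T cells and for class switching to IgA, was the most abundant Runx gene and differed little between the genotypes. It lies on chromosome 4 from 134676567 to 134733905 on the plus strand. Its FPKM was 27.8 and 25.9 in WT and 25.4 and 25.3 in Ets1-/- libraries. Both Ets1-/- values were below both WT values, but by less than the distance between the WT replicates. The log2 fold change was -0.08 (standard error 0.13, 95% confidence interval -0.42 to 0.26), at a limma p of 0.904 after Benjamini-Hochberg adjustment.

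Runx2, the factor that directs bone formation and is known in blood from plasmacytoid dendritic cells, was close to the lower end of detection. It lies on chromosome 17 from 44632936 to 44951746 on the minus strand, and its exons share 519 bases with the antisense gene Gm10497. Its FPKM was 0.626 and 0.359 in WT and 0.635 and 0.355 in Ets1-/- libraries. The genotypes overlapped fully, and the replicates of each genotype differed by 1.74 and 1.79 times. Runx2 did not pass the filter. In the fit without a filter, over 17315 genes, its log2 fold change was 0.00 (95% confidence interval -0.38 to 0.38), at a limma p of 1.00 after Benjamini-Hochberg adjustment.

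Cbfb lies on chromosome 8 from 107694574 to 107741886 on the plus strand. Its FPKM was 47.5 and 57.2 in WT and 53.4 and 49.2 in Ets1-/- libraries, so both Ets1-/- values fell between the WT values. The log2 fold change was -0.02 (standard error 0.16, 95% confidence interval -0.43 to 0.38), at a limma p of 0.988 after Benjamini-Hochberg adjustment. Its sign was positive when WT replicate 2 (0.11) or Ets1-/- replicate 2 (0.04) was left out, so no direction is given for Cbfb.

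The makeup of the Runx pool was compared as ratios within a library, which do not depend on how libraries were scaled to one another. Runx1 made up 35.9% and 38.3% of the summed Runx FPKM in the WT libraries and 29.7% and 33.6% in the Ets1-/- libraries. Runx3 made up 62.7% and 60.9% in WT and 68.6% and 65.5% in Ets1-/- libraries. The genotypes did not overlap in either share, a separation that 41.6% of single genes tested also showed. Because Runx2 was a small part of the sum, the shares of Runx1 and Runx3 mirror each other and are not separate results. The mean shift of Runx1 was -5.41 percentage points, beside an SD between replicates of 1.70 in WT and 2.77 in Ets1-/- cells. It was -3.46 percentage points without Ets1-/- replicate 1. Runx2 was at most 1.71% of the sum in any library. The summed Runx FPKM itself was 44.3 and 42.5 in WT and 37.1 and 38.6 in Ets1-/- libraries, without overlap. Cbfb exceeded the sum of its 3 Runx partners in all 4 libraries, by 1.07 and 1.34 times in WT and by 1.44 and 1.27 times in Ets1-/- libraries, and these ratios overlapped between the genotypes. They are ratios of transcripts, and protein was not measured.

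**Figure D2:**
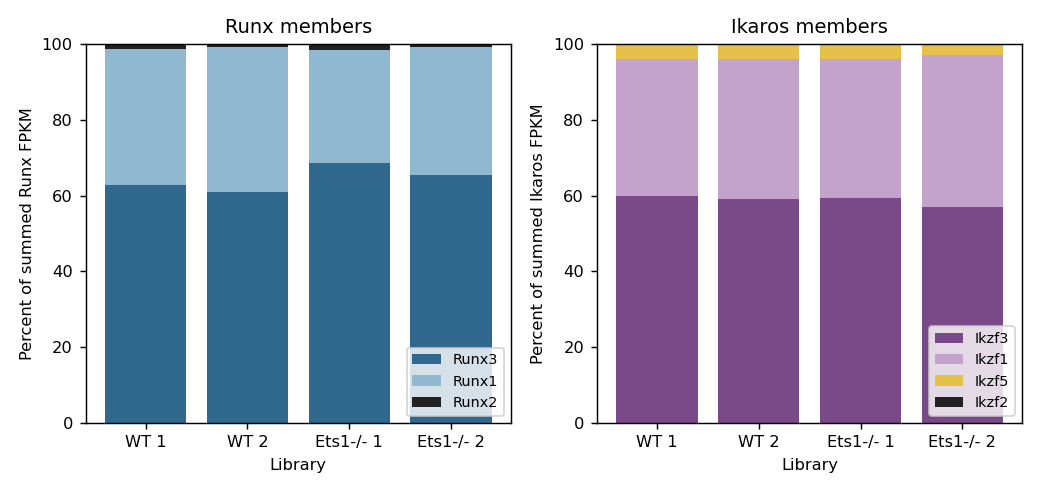
Percent of the summed FPKM (y axis) that each member contributes in each of the 4 libraries (x axis), for the 3 Runx genes on the left and the 4 Ikaros genes on the right; each bar is 1 library and the segments add up to the whole. Runx3 takes 60.9% to 68.6% of the Runx sum and is larger in both Ets1-/- bars. Ikzf3 takes 56.9% to 59.9% of the Ikaros sum, with overlap between the genotypes. The small Ikzf5 segment, 2.75% to 3.86%, is smaller in both Ets1-/- bars.

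The lymphoid Ikaros factors Ikzf1 and Ikzf3 were among the more abundant transcripts of these cells and differed little between the genotypes. Ikzf1, on chromosome 11 from 11585006 to 11672929 on the plus strand, was at 109 and 112 FPKM in WT and at 113 and 117 FPKM in Ets1-/- libraries. Both Ets1-/- values were above both WT values, although the lower Ets1-/- value exceeded the higher WT value by 1.01 times, less than the difference between replicates. Its log2 fold change was 0.05 (standard error 0.14, 95% confidence interval -0.30 to 0.41), at a limma p of 0.947 after Benjamini-Hochberg adjustment, and it was 0.0095 after quantile normalization.

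Ikzf3, on the same chromosome from 98326216 to 98407345 on the minus strand, was at 180.5 and 179 FPKM in WT and at 184 and 166 FPKM in Ets1-/- libraries. The Ets1-/- values lay on either side of the WT values. The log2 fold change was -0.04 (standard error 0.15, 95% confidence interval -0.43 to 0.35), at a limma p of 0.970 after Benjamini-Hochberg adjustment. It was 0.032 without Ets1-/- replicate 2, so no direction is given for Ikzf3. The ratio of Ikzf3 to Ikzf1 was 1.66 and 1.59 in WT and 1.62 and 1.42 in Ets1-/- libraries, with overlap.

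Ikzf5, whose product Pegasus is a more distant relative that binds a different DNA sequence from the other Ikaros proteins, was lower in both Ets1-/- libraries, and that difference rested mostly on 1 of them. The gene lies on chromosome 7 from 138532166 to 138554035 on the minus strand. Its FPKM was 11.6 and 11.3 in WT and 11.01 and 7.99 in Ets1-/- libraries. The first Ets1-/- value lay just under the WT values and the second well below them. WT cells averaged 11.5 ± 0.250 FPKM (SD, n = 2) and Ets1-/- cells 9.50 ± 2.14 FPKM (SD, n = 2). The log2 fold change of -0.26 (standard error 0.19, 95% confidence interval -0.74 to 0.21) did not pass it (limma, Benjamini-Hochberg adjusted p = 0.683). Without Ets1-/- replicate 2 it was -0.05, and without Ets1-/- replicate 1 it was -0.47. As a share of the summed Ikaros FPKM, Ikzf5 was 3.86% and 3.73% in WT and 3.57% and 2.75% in Ets1-/- libraries.

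Ikzf2 was the member with the largest ratio between the genotypes, at very low levels. It lies on chromosome 1 from 69577788 to 69732534 on the minus strand. Its FPKM was 0.326 and 0.4501 in WT and 0.949 and 0.599 in Ets1-/- libraries. Both Ets1-/- values were above both WT values, and the Ets1-/- mean was 1.995 times the WT mean, while the Ets1-/- replicates differed from each other by 1.59 times. Because its mean was under 1 FPKM in both genotypes, Ikzf2 did not enter the main test. In the fit without a filter its log2 fold change was 0.35 (standard error 0.12, 95% confidence interval 0.01 to 0.68), with an unadjusted p of 0.0443 from limma and an adjusted p of 0.369. With a pseudocount of 0.1 in place of 1 the log2 difference was 0.82. At this level it made up at most 0.308% of the summed Ikaros FPKM. T cells are among the cells in which Helios is known, and the summed FPKM of 10 T cell markers was 127 to 152 in WT and 108 to 135 in Ets1-/- libraries, with none of the 10 listed at 0 in all libraries. Of these 10 markers 1, Thy1, was called, in the downward direction. The log2 fold changes of Cd3g (0.54), Cd4 (0.31), Cd3d (0.15) and Cd3e (0.09) were positive. Those of Il7r (-0.79), Lck (-0.42), Cd8a (-0.30), Cd8b1 (-0.21) and Cd5 (-0.15) were negative, so the markers did not move in 1 direction. The part of T cells in the level of Ikzf2 was not tested.

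**Figure D3:**
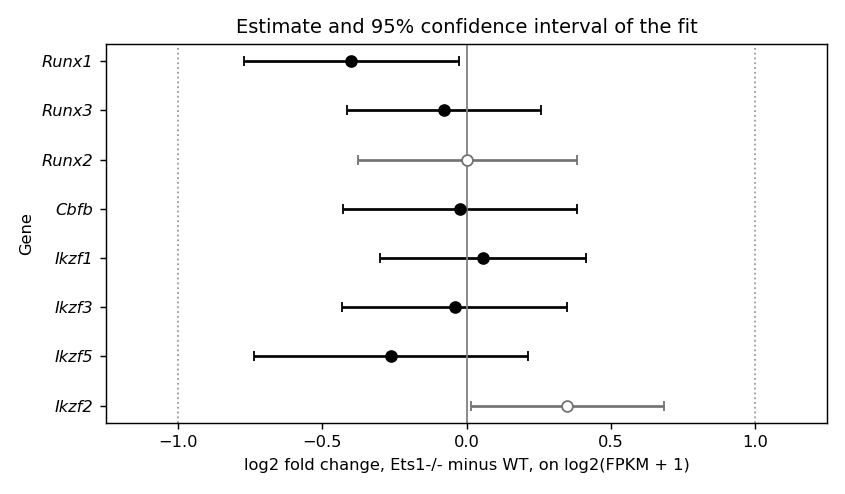
Ets1-/- minus WT difference in log2(FPKM + 1) (x axis) with its 95% confidence interval from limma for each gene (y axis); filled points are the 6 genes of the main fit, and open grey points are Ikzf2 and Runx2 from the fit without a filter. On this scale, which shrinks differences of genes near 1 FPKM such as Ikzf2, every interval stays within the dotted lines at 1 and -1, and those of Runx1 (-0.77 to -0.03) and Ikzf2 (0.01 to 0.68) do not reach 0.

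For all 6 genes of the main fit the 95% confidence interval lay inside a 2-fold change in either direction on the log2(FPKM + 1) scale. Written as folds on that scale, the intervals of Runx3, Cbfb, Ikzf1 and Ikzf3 ran from 0.741 at the lowest to 1.33 at the highest, so smaller changes of these genes in either direction are within the error of these 4 libraries. The intervals are for single genes and are not adjusted for the number of genes tested.

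The genes whose values over the 4 libraries were most like those of Runx1 were Surf6, Slc39a6 and Trim30b. Likeness was the Euclidean distance between the deviations of log2(FPKM + 1) from each gene's own mean, over 4 libraries, and it was 0.0171 to 0.0251 for these 3 genes. Surf6, which encodes a nucleolar protein of ribosome biogenesis, had an FPKM of 29.1 and 29.6 in WT and of 20.6 and 24.1 in Ets1-/- libraries. With 4 libraries in 2 genotypes, such a distance describes these values and no more.

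The proteins that work with these factors and the genes they are known to control were described with 4 lists. Their counts are to be read beside the 1.7% of all genes tested that were called, the 13.3% with an unadjusted p under 0.05 in either direction and the 6.95% that were lower at that p. Of 15 Runx cofactors, such as Groucho-type corepressors and histone acetyltransferases, all were tested and 0 were called, with 1 higher and 1 lower at an unadjusted p under 0.05 in limma. The one that was lower, Tle1, a Groucho corepressor, had an FPKM of 3.48 and 3.36 in WT and of 1.12 and 1.71 in Ets1-/- libraries, with an adjusted p of 0.109. The one that was higher, Hipk2, a nuclear kinase, had an FPKM of 4.47 and 3.43 in WT and of 6.55 and 6.87 in Ets1-/- libraries, with an adjusted p of 0.171. The values of both genes were separate between the genotypes, as were those of 41.6% of all genes tested. The other named gene of this list, Tle2, had a log2 fold change of -0.28. The abundant family member Tle3 had an FPKM between 35.4 and 37.7 in all 4 libraries.

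Of 15 subunits of NuRD and CtBP corepressors, through which Ikaros proteins act, 14 were tested and 0 were called. At an unadjusted p under 0.05 in limma 1 gene was lower and 0 were higher. That gene, Chd3, a remodelling ATPase of the complex, had an FPKM of 36.7 and 34.5 in WT and of 28.4 and 27.0 in Ets1-/- libraries, with an adjusted p of 0.359. Hdac1, a histone deacetylase, had a log2 fold change of -0.30 and the methyl-binding subunit Mbd3 of 0.32, each with an unadjusted p above 0.05. The median log2 fold change of the list was -0.09.

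Of 11 genes known as targets of Ikaros or Aiolos in developing lymphocytes, 6 were tested, 0 were called, and 3 were lower at an unadjusted p under 0.05 in limma, beside 6.95% of all genes tested. The other 5, the pre-B and recombination genes Igll1, Vpreb1, Dntt, Rag1 and Rag2, were below 1 FPKM in every library, which is what sets them outside the test. The genes that were lower were Ccnd3, a cyclin, Foxo1, a transcription factor of resting B cells, and Bcl6, a transcriptional repressor of germinal centre B cells. Ccnd3 had an FPKM of 40.9 and 41.4 in WT and of 24.2 and 30.2 in Ets1-/- libraries, with an adjusted p of 0.191. Foxo1 went from 51.9 and 51.0 to 33.6 and 37.6 FPKM, with an adjusted p of 0.180, and Bcl6 from 32.5 and 33.5 to 21.3 and 24.4 FPKM, with an adjusted p of 0.194. The genotypes were separate in each, as in 41.6% of all genes tested. Myc went the other way, from 72.5 and 120.5 FPKM in WT to 197.0 and 129.9 FPKM in Ets1-/- libraries, a log2 fold change of 0.77. Those of Cdkn1b and Blnk were -0.01 and -0.12, and the unadjusted limma p of each of these genes was above 0.05. The median log2 fold change over the 6 tested genes was -0.32.

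Of 9 genes known as Runx targets in blood cells all were tested, 0 were called, and 1 was higher and 1 lower at an unadjusted p under 0.05 in limma. Zbtb7b, which encodes the factor ThPOK and is silenced by Runx in cytotoxic T cells, had an FPKM of 26.5 and 24.01 in WT and of 14.6 and 18.0 in Ets1-/- libraries, with an adjusted p of 0.179. Itgae, an integrin chain that Runx3 is known to activate, had an FPKM of 0.763 and 0.760 in WT and of 1.249 and 2.07 in Ets1-/- libraries, with an adjusted p of 0.326. Cd79a, which encodes a B cell receptor subunit, had an FPKM of 1923 and 2051 in WT and of 1407 and 1639 in Ets1-/- libraries. The log2 fold change was -0.39, with a standard error of 0.23 (limma, Benjamini-Hochberg adjusted p = 0.608). The median log2 fold change of this list was 0.09.

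**Figure D4:**
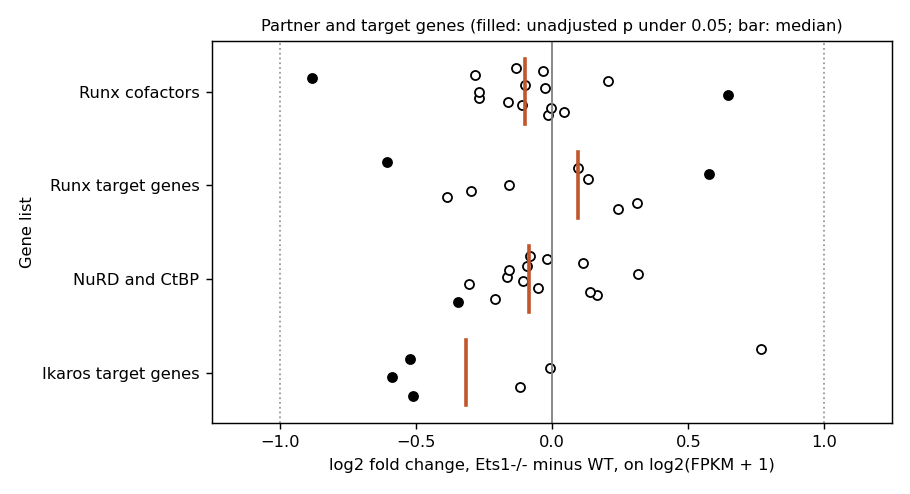
Ets1-/- minus WT difference in log2(FPKM + 1) (x axis) of the tested genes of the 4 lists (y axis); each circle is 1 gene, filled where the unadjusted limma p was under 0.05, and the orange bar is the median of the list. On this scale, which shrinks differences of low genes such as Tle1 and Itgae, all circles lie within the dotted lines at 1 and -1, and 8 are filled, 3 of them among the Ikaros target genes.

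Other cells of the spleen express Runx and Ikaros genes too, so their markers are given here for the lists not yet described. The summed FPKM of 8 NK cell genes was 27.1 to 42.0 in WT and 19.8 to 30.1 in Ets1-/- libraries, and 4 of the 8 were lower at an unadjusted p under 0.05 in limma, beside 6.95% of all genes tested, with the lowest p for Klrk1, Klrb1c and Ncr1. Among the rest, the log2 fold changes of Nkg7 (0.20), Eomes (0.22) and Gzmb (0.07) were positive and that of Gzma negative (-1.46), none at that p. Runx3 is a known factor of NK cells, and the part of these cells in its level was not tested. Of 9 marginal zone and B-1 cell genes 0 were called, with 2 higher and 3 lower at that p. The lowest p were those of Zbtb32 (log2 fold change 1.19), Cr2 (-1.28) and Dtx1 (-0.65). Cr2 was at 102 and 116 FPKM in WT and at 65.1 and 30.0 FPKM in Ets1-/- libraries, and the paper lists it as downregulated. The sums of the list were 222 to 253 in WT and 121 to 174 in Ets1-/- libraries. Of 6 plasma cell genes 5 were tested and 0 were called, with 2 higher at that p, Sdc1 and Prdm1. The other 3 had negative log2 fold changes (Irf4 -0.85, Xbp1 -0.36 and Igj -0.17) with unadjusted p above 0.05, the median of the list was -0.17, and the sums were 168 to 189 in WT and 138 to 152 in Ets1-/- libraries. Of 6 plasmacytoid dendritic cell genes 3 were tested, with 0 at that p. The summed FPKM of all 6 lay between 69.7 and 75.8 in all 4 libraries. Most of that sum was Bst2, at 49.0 to 61.8 FPKM, so it says little about the other genes of the list.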

How the data were processed

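RNA-seq libraries of sorted follicular B cells were analysed, 2 per genotype. The authors aligned reads to mm9 with TopHat2 2.0.13 (version from the submitters' processing notes), estimated expression with Cuffdiff and deposited 1 FPKM value per gene symbol and library. The gene annotation and any scaling between libraries by Cuffdiff are not given in the sources used here. Of 23309 entries, 4 with a repeated symbol were left out. Reads were not realigned, and no count-based test was used.

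Genes reaching a mean of 1 FPKM in WT or Ets1-/- cells (10949) were tested on log2(FPKM + 1) with limma 3.58.1 under R 4.3.3, using eBayes with a trend and all 4 libraries. Benjamini-Hochberg adjustment covered all 10949 genes. Confidence intervals used the residual (2) and prior (3.10) degrees of freedom. The fit assumed the same variance in both genotypes. The median absolute log2 difference between replicates was 0.126 in WT and 0.259 in Ets1-/- libraries. The fit was tested on simulated data. Other values were computed with Python 3.11.15, numpy 2.4.6, pandas 2.3.3 and scipy 1.17.1. Positions come from GENCODE M1 (mm9), and promoters from RefSeq (GRCm38.p6), matched by sequence to mm9. The replicates are described as biological; depth is known only relative to WT replicate 1.

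The members, gene lists and tests were chosen with earlier results of these data known. Named were all members, Ets1 and, from each list, the called genes or otherwise up to 3 with the lowest p. The 3 genes most like the member with the lowest p were named too. Tle3, the other Ikaros targets (5 of them untested) and further genes of the macrophage, T cell, NK cell and plasma cell lists were added after their values were seen. Alternatives covered the pseudocount, the filter, scaling, the replicate block, each replicate left out and the 2-fold minimum.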

Additional observations from a re-analysis of the deposited data

How the results depend on the processing

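Under all 12 alternatives 0 members were called, and the lowest adjusted p of any member under any of them was 0.154. The count of genes called, 186 in the main fit, was 75 without a filter (17315 genes), 106 with a filter at 5 FPKM (8604 genes) and 99 to 116 with 1 replicate left out, where the lone library of a genotype is assumed to vary like the other genotype. With the replicate number of the labels as a block it was 266, with 0 members called. No pairing of the samples is stated in the sources used here. Deviations from the genotype mean were correlated at -0.21 (across genes) between replicates of the same number. With 2 replicates per genotype this is a single correlation, which cannot decide whether the samples were paired. Blocking on the crossed pairing, an alternative chosen after seeing the data, gave 409 called genes.

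With 1 replicate left out, the log2 fold change of Cbfb ranged from -0.16 to 0.11 (0.11 without WT replicate 2 and 0.04 without Ets1-/- replicate 2) and that of Ikzf3 from -0.12 to 0.032 (0.032 without Ets1-/- replicate 2), each with a change of sign. The sign was unchanged under all 11 fits that give a fold change for Runx1 (-0.51 to -0.29), Runx3, Ikzf1 and Ikzf5. Values of these genes did not overlap between the genotypes, so leaving out a replicate or changing the pseudocount could not change their sign. The filter and block alternatives left each estimate as it was. Only quantile normalization and upper-quartile scaling could have changed a sign, so the unchanged sign adds little. The unadjusted p of Runx1 was under 0.05 in 6 of the 11 and ranged from 0.0139 to 0.259, and its adjusted p ranged from 0.165 to 1. Scaling moved the median of all genes by less than 0.1 on the log2 scale. The cause of these changes was not tested.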
